A study of Mus musculus with 6 samples.

Results

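The Fc receptors measured here are 8 mouse genes, Fcgr1, Fcgr2b, Fcgr3, Fcgr4, Fcer1g, Fcgrt, Pigr and Trim21, taken by symbol from a table of 47069 genes counted in whole lung. The lungs came from adult mice and were collected at ZT10, 10 h after lights on, from 3 wild type mice (WT4, WT5 and WT6) and 3 Zpbp2 mutant mice (KO4, KO5 and KO6), with 1 RNA library per mouse. KO mice (strain B6.129S7-Zpbp2tmZuk/Mmjax) carry a germline deletion of exons 1 to 3 of Zpbp2 on a C57BL/6J background. WT mice were C57BL/6J animals of the same colony, and neither group was treated. The comparison of KO with WT asks which lung RNAs differ when this stretch of the asthma-associated locus is missing.

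Library totals ranged from 19981428 to 46796908 counts, with KO5 the deepest. At these depths 3 counts correspond to between 0.0629 and 0.148 CPM (counts scaled to library size), a floor for counting error only. Zpbp2 had 1, 2 and 2 counts in WT mice and 0 counts in each KO mouse, so its RNA was at or below this floor in all 6 libraries and does not check the labels at this depth. Sftpc, the surfactant gene of alveolar type 2 cells, averaged 12836 CPM in WT and 10923 CPM in KO mice, and Scgb1a1, of airway club cells, averaged 27974 and 23352 CPM. All 8 Fc receptor genes passed the filter on low counts, with 57 to 3753 counts per mouse.

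Fc receptors bind the constant part of antibodies. Fcgr1, Fcgr3 and Fcgr4 encode activating receptors for IgG on myeloid cells, and they signal through the gamma chain encoded by Fcer1g, whose ITAM motif recruits the kinase SYK after phosphorylation by SRC family kinases. Fcgr2b encodes the inhibitory IgG receptor, which carries an ITIM motif that recruits the phosphatase SHIP1, and it is the Fc gamma receptor of B cells. The other members work elsewhere. Fcgrt encodes the heavy chain of FcRn, which pairs with beta-2 microglobulin and rescues IgG from breakdown in endothelial cells and macrophages. Pigr encodes the polymeric immunoglobulin receptor, which carries IgA and IgM across epithelia, and Trim21 encodes a cytosolic ubiquitin ligase that binds antibody on incoming pathogens and is induced by interferon.

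In GRCm38, Fcgr2b (ENSMUSG00000026656, chr1:170958617-170976547, minus strand), Fcgr4 (ENSMUSG00000059089, chr1:171018920-171029761, plus strand), Fcgr3 (ENSMUSG00000059498, chr1:171051174-171064935, minus strand) and Fcer1g (ENSMUSG00000058715, chr1:171229572-171234365, minus strand) lie within 275.7 kb of each other. Pigr (ENSMUSG00000026417, chr1:130826684-130852249, plus strand) is on the same chromosome, Fcgr1 (ENSMUSG00000015947, chr3:96282909-96293969, minus strand) is on chromosome 3, and Fcgrt (ENSMUSG00000003420, chr7:45092990-45103851, minus strand) and Trim21 (ENSMUSG00000030966, chr7:102557921-102565486, minus strand) are on chromosome 7. The bases just before the RefSeq start sites (GRCm38.p6) of the activating receptors and the gamma chain are printed 5′ to 3′ on the gene strand, because these genes encode the parts of shared receptor complexes. Each stretch holds up to 120 bases, with bases inside annotated exons left out, and capitals mark matches to the motifs searched.
Fcgr1, chr3:96293970-96294089: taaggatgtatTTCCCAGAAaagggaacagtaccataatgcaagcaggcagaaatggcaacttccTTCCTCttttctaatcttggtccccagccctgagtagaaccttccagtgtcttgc
Fcgr3, chr1:171059404-171059523: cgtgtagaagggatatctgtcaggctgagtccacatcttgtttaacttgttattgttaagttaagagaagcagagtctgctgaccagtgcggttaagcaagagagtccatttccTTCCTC
Fcgr4, chr1:171018806-171018919: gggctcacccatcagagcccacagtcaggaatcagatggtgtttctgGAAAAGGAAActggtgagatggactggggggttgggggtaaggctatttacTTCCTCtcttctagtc
Fcer1g, chr1:171234366-171234469: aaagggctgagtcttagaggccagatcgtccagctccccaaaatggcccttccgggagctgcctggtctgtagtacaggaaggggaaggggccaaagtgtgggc

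The motifs were searched on both strands in the 250 bases before each start. The core of sites for PU.1, a transcription factor of myeloid and B cells, was taken as GAGGAA, and on the opposite strand it reads TTCCTC as in the capitals above. It was present before Fcgr1 (55 to 50 bases before the start), Fcgr3 (6 to 1 bases before the upstream of its starts) and Fcgr4 (22 to 17 bases before the start), that is in 3 of the 8 genes, and 23.3% of the 32851 promoters in the table hold it. TTCNNNGAA, a STAT site, was found only before Fcgr1 and is held by 7.02% of promoters. The interferon response element, written as GAAA repeated after a gap of 2 bases, was found only before Fcgr4 and is held by 2.98%. CACGTG, the E-box bound by clock activators, was found only before Pigr (6.02% of promoters), and TAGGTCA, bound by REV-ERB and ROR receptors, was found before 0 of the 8 genes (2.23% of promoters). No motif overlapped another in the stretches printed, and a match is a description of letters only.

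Fcgr2b and Fcgr3 are near copies over the part that binds antibody. Their coding sequences (transcripts Fcgr2b-201 and Fcgr3-201) aligned over 509 bases with 96.5% identity, against 66.1% to 72.5% over shorter stretches in the other pairs of Fcgr genes. The longest run they share without a mismatch is 129 bases, positions 278 to 406 of the Fcgr2b and 263 to 391 of the Fcgr3 coding sequence, and it is shown because a read inside it cannot be assigned to either gene.
Fcgr2b and Fcgr3, shared run: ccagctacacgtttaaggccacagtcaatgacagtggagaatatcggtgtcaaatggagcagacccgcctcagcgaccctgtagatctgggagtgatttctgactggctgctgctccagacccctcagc
Of the 50-base windows of Fcgr3-201, 12.8% also occur in a transcript of Fcgr2b, and of those of Fcgr2b-201, 4.75% occur in a transcript of Fcgr3. How such reads were counted is not given in the sources used here, so the values of Fcgr2b and Fcgr3 carry this uncertainty. Other overlaps were small, as the antisense gene Gm38204 over 155 exon bases of Fcgr2b had at most 2 counts in any library.

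Levels of the members were compared per kilobase of annotated exon (RPKM). In WT mice Fcgrt was highest at 33.4 ± 2.42 RPKM (SD, n = 3), and Fcgr1 was lowest at 1.28 ± 0.333 RPKM (SD, n = 3). Between them came Fcer1g (26.4 ± 6.04), Pigr (24.3 ± 2.53), Fcgr3 (14.4 ± 2.40), Trim21 (8.12 ± 0.665), Fcgr2b (4.94 ± 0.364) and Fcgr4 (4.83 ± 0.750 RPKM). The ranges of the 3 WT mice overlapped between Fcer1g and Pigr and between Fcgr2b and Fcgr4, and not between other neighbours in this order. In KO mice Fcer1g stood first at 47.8 ± 7.78 RPKM, above Fcgrt at 35.3 ± 1.86 RPKM, and their ranges did not overlap. Fcgr4 in KO mice, at 10.7 ± 3.74 RPKM, overlapped Trim21 (9.21 ± 0.393) and Fcgr2b (8.95 ± 3.57). Over both groups Fcer1g lay at percentile 93.0 of the tested genes by RPKM, Fcgr3 at 79.0, Fcgr4 at 62.0 and Fcgr1 at 26.6.

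**Figure D1:**
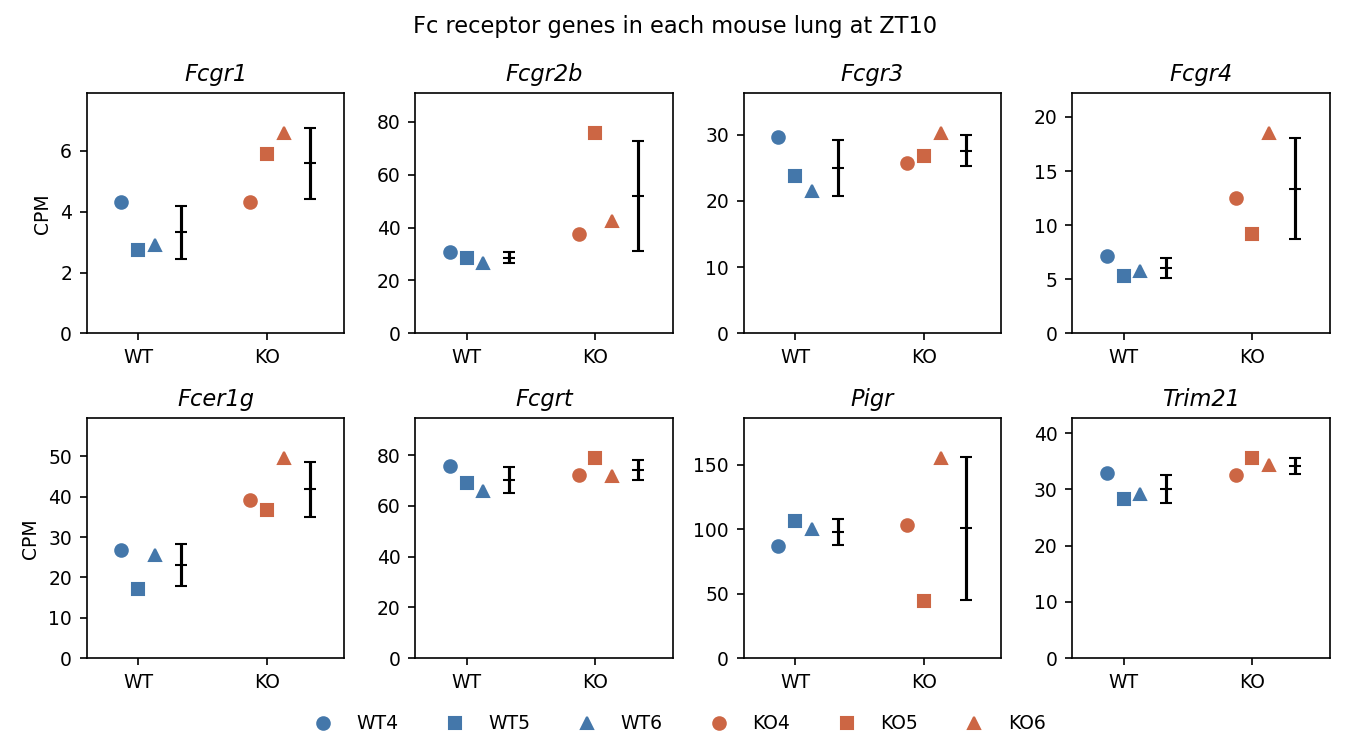
CPM of each Fc receptor gene (vertical axes from 0, 1 panel per gene) in the WT (blue) and KO (red) lungs, with symbols for the mice and black bars for the mean ± SD of 3 mice. The KO values of Fcgr2b, Fcgr4 and Fcer1g lie above all WT values, KO5 stands highest for Fcgr2b and lowest for Pigr, and the groups overlap in the other genes.

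Of the 8 genes, Fcgr4 and Fcer1g were higher in KO mice with an adjusted p-value of at most 0.05 from edgeR's quasi-likelihood test, where 3.72% of the 17037 genes tested were called higher and 6.39% were called in either direction. No member was called lower, against 2.67% of the genes tested, and of the 5 members with an unadjusted p under 0.05 in edgeR (Fcgr1, Fcgr2b, Fcgr4, Fcer1g and Trim21) 0 were lower. The share of all genes with an unadjusted p under 0.05 was not taken. Counts at that cut, here and in the lists below, therefore have no background and are descriptions only. DESeq2 and edgeR's exact test each called 3 members higher, Fcgr2b besides these 2, where they called 11.2% and 8.62% of all genes. All 8 log2 fold changes were above 0, with a median of 0.47, while over all genes tested 50.6% were above 0 and the median was 0.00295. No member reached the study's additional threshold of a log2 fold change of 1.5, which 0.64% of the genes tested passed together with the adjusted p-value. In 3 members (Fcgr2b, Fcgr4 and Fcer1g) every KO value exceeded every WT value, as in 17.0% of all genes tested. Calls over all genes, 1089 with all mice, became 254, 1 and 63 without WT4, WT5 and WT6. Without KO4, KO5 and KO6 they became 1278, 933 and 117. Calls kept or lost without 1 mouse, given below for members and lists, are to be read beside these totals. Since the RNA came from whole lung, more cells of a type and more RNA per cell cannot be told apart in any of these values.

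Fcer1g, the gamma chain, measured 26.8, 17.1 and 25.5 CPM in WT4, WT5 and WT6 and 39.1, 36.8 and 49.5 CPM in KO4, KO5 and KO6. WT5 was the lowest and KO6 the highest, and the groups did not overlap. The log2 fold change was 0.85 (standard error 0.185, 95% interval 0.41 to 1.28), or 1.80-fold (edgeR adjusted p = 0.0440). The call was kept without KO5 (adjusted p = 0.0424 in edgeR) and lost when any other mouse (WT4, WT5, WT6, KO4 or KO6) was left out. In those fits edgeR's adjusted p lay between 0.0593 and 0.116, with log2 fold changes from 0.67 to 0.96. The unadjusted p in edgeR was 0.00236 with all mice, 0.00266 without WT5 and at most 0.00731 (without KO6) in any of these fits.

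Fcgr4, the mouse activating receptor of intermediate affinity for IgG2a and IgG2b found on monocytes and neutrophils, measured 7.13, 5.32 and 5.76 CPM in WT4, WT5 and WT6. In KO4, KO5 and KO6 it measured 12.5, 9.21 and 18.5 CPM. KO6 was the highest of the 6 mice and KO5 the lowest of the KO mice, and again the groups did not overlap. Fcgr4 had the largest log2 fold change among the members, 1.13 (standard error 0.259, 95% interval 0.52 to 1.74), or 2.19-fold (edgeR adjusted p = 0.0491). Without KO5 the adjusted p was 0.0180 in edgeR, and when WT4, WT5, WT6, KO4 or KO6 was left out it was between 0.0692 and 0.178 and no longer passed, while the log2 fold change without 1 mouse ranged from 0.83 without KO6 to 1.34 without KO5.

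Fcgr1, the high affinity IgG receptor of monocytes and macrophages, had the fewest reads of the group. It measured 4.31, 2.73 and 2.91 CPM in the WT mice and 4.30, 5.89 and 6.57 CPM in the KO mice in the order of their numbers. WT4 and KO4 were nearly equal, so the groups overlapped. The log2 fold change of 0.75 (95% interval 0.20 to 1.31) had an adjusted p of 0.103 in edgeR and did not pass the test.

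Fcgr3, the low affinity activating receptor of macrophages, neutrophils and NK cells, was at about the same level in both groups. It measured 29.6, 23.8 and 21.5 CPM in WT4, WT5 and WT6 and 25.7, 26.7 and 30.2 CPM in KO4, KO5 and KO6. The groups overlapped through WT4, which lay above KO4 and KO5, while WT5 and WT6 lay below all KO mice. Without WT4 the log2 fold change was 0.28 (edgeR adjusted p = 0.193). With a log2 fold change of 0.14 and a 95% interval from -0.16 to 0.44, or a fold between 0.898 and 1.36, Fcgr3 did not pass the test (edgeR adjusted p = 0.534).

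Fcgr2b, the inhibitory receptor, measured 30.8, 28.3 and 26.7 CPM in WT4, WT5 and WT6 and 37.5, 75.5 and 42.5 CPM in KO4, KO5 and KO6. KO5 stood apart at 2.64 times the WT mean, whereas KO4 and KO6 were at 1.31 and 1.48 times that mean, and all 3 KO mice lay above the WT range. The log2 fold change of 0.87 (95% interval 0.28 to 1.46) did not pass the test (edgeR adjusted p = 0.0868). Without KO5 the log2 fold change was 0.48, with a smaller spread and an adjusted p of 0.0294 in edgeR, and without KO4 it was 1.05 with an adjusted p of 0.0466. In KO5 the B cell markers also stood apart, since the summed level of 9 B cell genes was 1061 CPM there, against 248.4 and 299.2 CPM in KO4 and KO6 and 133.8 to 146.2 CPM in WT mice. The part of B cell RNA in the Fcgr2b values was not tested.

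**Figure D2:**
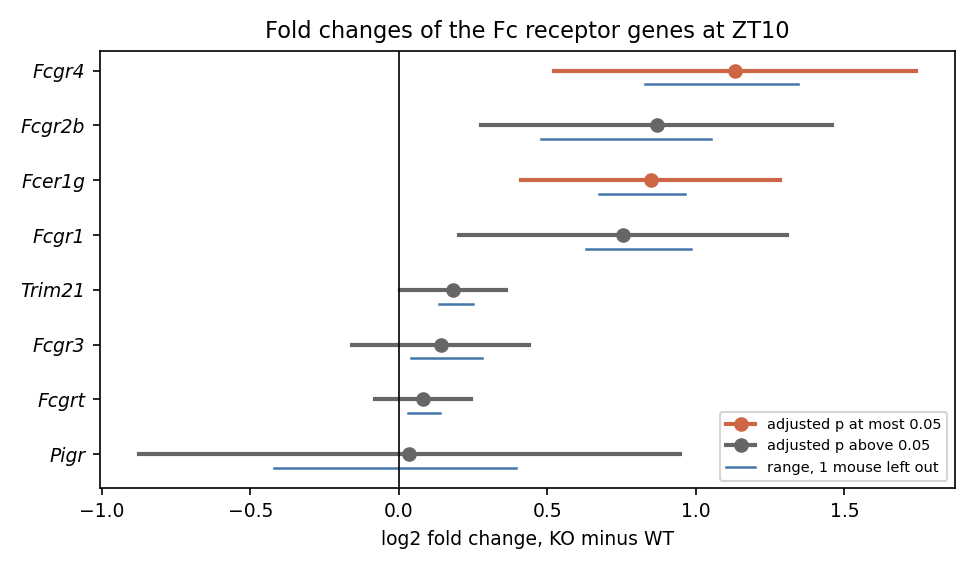
Log2 fold change of each member (KO minus WT, horizontal axis) with its 95% interval (thick line, red where the adjusted p-value was at most 0.05) and the range over the 6 fits that left out 1 mouse (thin blue line). Fcgr4 at 1.13 and Fcer1g at 0.85 passed the test, Fcgr2b at 0.87 and Fcgr1 at 0.75 did not, and the interval of Pigr is the widest, from -0.88 to 0.95.

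Ratios within a library do not depend on how libraries are scaled. The summed CPM of the activating receptors Fcgr1, Fcgr3 and Fcgr4 was 1.33, 1.13 and 1.13 times that of Fcgr2b in WT4, WT5 and WT6 and 1.13, 0.554 and 1.30 times in KO4, KO5 and KO6. Only KO5 lay outside the WT range among the KO mice. On the log2 scale the difference was -0.35 (exact permutation test, two-sided, p = 0.6, where 3 mice against 3 allow no p below 0.1), and without KO5 it was 0.026. KO5 thus had the lowest of the 6 ratios, and KO4 and KO6 lay among the WT mice. CPM does not account for exon length, so these ratios compare mice and not the levels of the receptors.

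The gamma chain was set against its partners in the same way. The level of Fcer1g was 0.653, 0.535 and 0.846 times the summed CPM of the activating receptors in WT4, WT5 and WT6 and 0.921, 0.878 and 0.897 times in KO4, KO5 and KO6. Every KO value was above every WT value, and the mean log2 difference was 0.43 (exact permutation test, two-sided, p = 0.1, the smallest possible). With the mean of log2 CPM over the 3 receptors in place of their sum, the difference was 0.20 (exact permutation test, p = 0.4). Among the WT mice this ratio varied more (SD 0.331 on the log2 scale) than among the KO mice (SD 0.0341).

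The makeup of the receptor RNA per length was described for the 4 Fcgr genes together. Fcgr3 held 54.6% to 57.4% of their summed RPKM in WT mice and 40.5% to 45.1% in KO mice. Fcgr4 held 17.7% to 20.2% in WT mice, and 30.2%, 19.3% and 35.05% in KO4, KO5 and KO6. Fcgr2b held 17.9% to 20.5% in WT mice, 19.7% and 17.5% in KO4 and KO6, and 34.3% in KO5. Fcgr1 held between 4.41% and 6.05% in all 6 mice. Thus the larger share beside Fcgr3 was that of Fcgr4 in KO4 and KO6 and that of Fcgr2b in KO5. For single genes, chosen after their values were seen, Fcgr4 stood at 0.241, 0.223 and 0.268 times the CPM of Fcgr3 in WT4, WT5 and WT6 and at 0.485, 0.344 and 0.612 times in KO4, KO5 and KO6.

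**Figure D3:**
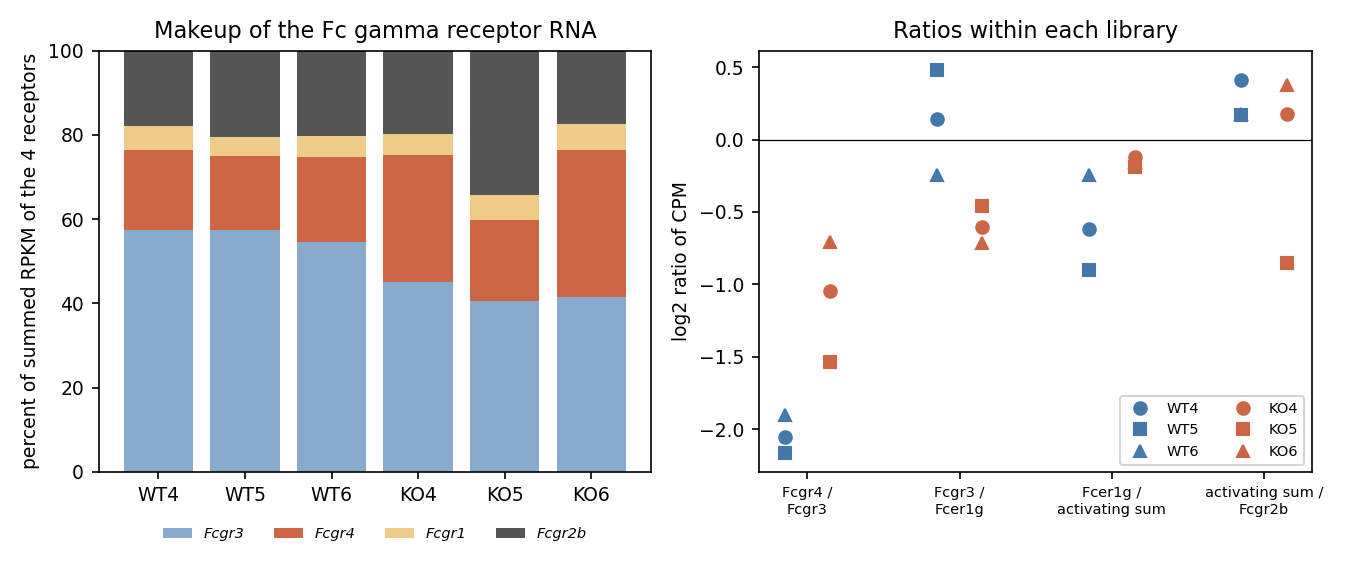
Left, percent of the summed RPKM of the 4 Fc gamma receptor genes held by each gene, with 1 stacked bar per mouse. Right, log2 ratios of CPM within each library (circle, square and triangle for mice 4, 5 and 6, blue WT and red KO), where the activating sum is Fcgr1, Fcgr3 and Fcgr4. For Fcgr4 over Fcgr3 all red points lie above the blue ones, and KO5 alone falls to -0.85 for the activating sum over Fcgr2b.

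Fcgrt, the FcRn heavy chain, measured 75.8, 69.1 and 65.8 CPM in the WT mice and 72.1, 78.7 and 71.8 CPM in the KO mice. The groups overlapped and the spread was small. Fcgrt had a log2 fold change of 0.08, with a 95% interval of -0.08 to 0.24 and an adjusted p of 0.508 in edgeR, so that a fold above 1.18 or below 0.946 lay outside the interval. B2m, its light chain partner, had a log2 fold change of 0.29 (adjusted p = 0.120 in edgeR). Of 5 partners of FcRn and pIgR (B2m, Jchain and the transport genes Rab11a, Rab25 and Myo5b) 0 passed in edgeR's quasi-likelihood and exact tests and 1 in DESeq2, 3 had an unadjusted p under 0.05, and the median was -0.11.

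Pigr was the most variable member. It measured 86.8, 106.7 and 100.1 CPM in WT4, WT5 and WT6 and 103.1, 44.3 and 155.1 CPM in KO4, KO5 and KO6. KO5 was the lowest and KO6 the highest of the 6 mice, a 3.50-fold range within the KO group against 1.23-fold within the WT group. The log2 fold change of 0.04 (95% interval -0.88 to 0.95, adjusted p = 0.970 in edgeR) turned to -0.42 without KO6 and to 0.40 without KO5. Airway epithelial markers were low in KO5. With each of 8 airway genes weighted equally, their mean log2 level relative to the WT mean was -2.03 in KO5. It was -0.10 in KO4 and 0.04 in KO6. Their summed level differed less, at 22973 CPM in KO5, against 31526 CPM in KO4, 29145 CPM in KO6 and 30167 to 39335 CPM in WT mice. The part of airway RNA in the Pigr values was not tested. Jchain, which joins the polymeric antibodies that pIgR carries, measured 149.2 ± 90.2 CPM in WT and 415.6 ± 204.3 CPM in KO mice (SD, n = 3), a log2 fold change of 1.48 that did not pass the test (adjusted p = 0.139 in edgeR).

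Trim21 measured 32.9, 28.2 and 29.3 CPM in WT4, WT5 and WT6 and 32.7, 35.6 and 34.4 CPM in KO4, KO5 and KO6. WT4 lay just above KO4, so that the groups overlapped. The log2 fold change of 0.18 (standard error 0.0756, 95% interval 0.00497 to 0.36) had an adjusted p of 0.185 in edgeR. The 5 listed genes that act with TRIM21 are Ube2w, Ube2n and Ube2v2 of the ubiquitin-conjugating enzyme family, the segregase Vcp and the proteasome subunit Psmd14. Among them 0 passed the test at an adjusted p of at most 0.05 in edgeR, 0 had an unadjusted p under 0.05, and 0 passed in DESeq2 or edgeR's exact test. Their log2 fold changes lay between -0.14 and 0.04. Of 10 interferon-induced genes, 4 were higher in KO mice, where 3.72% of all genes tested were called higher. Among the 4 were Irf7, Oas1a and Mx1 with log2 fold changes of 0.74, 0.63 and 1.02, and the median of the 10 was 0.37. The count of 4 was 0 without WT5, WT6 or KO6, 1 without WT4 and 6 without KO5.

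Other genes of the Fc receptor pathways were read from the same fit by their roles. Of 64 such genes tested, 20 were higher and 0 lower in KO mice, where 3.72% of all genes tested were called higher and 2.67% lower. The median log2 fold change of the 64 genes was 0.68, against 0.00295 over all genes tested. The count of 20 moved in both directions when 1 mouse was left out. It was 0 without WT5, 1 without WT6, 3 without KO6 and 5 without WT4. Without KO4 and KO5 it was 27 and 28. Of 15 genes that carry the ITAM signal, 10 were higher, among them the kinases Lyn and Fgr, the phospholipase Plcg2, the exchange factor Vav1, the kinases Btk and Prkcd, the adaptor Lcp2, the GTPase Rac2 and the actin regulator Was. Fgr rose most among them, from 17.9 ± 3.48 to 48.5 ± 9.76 CPM (SD, n = 3), a log2 fold change of 1.43 (edgeR adjusted p = 0.0142). Syk, the kinase that docks on the phosphorylated gamma chain, had a log2 fold change of 1.19 but an adjusted p of 0.0718 in edgeR. Fyn and Vav3, at -0.06 and -0.17, did not pass. The ITAM list's median was 1.01, and its count of 10 ranged from 0 without WT5 and 1 without WT6 to 13 without KO4 or KO5.

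On the inhibitory side, 2 of 6 genes were higher in KO mice. These were the phosphatase Ptpn6 (log2 fold change 1.09, adjusted p = 0.0322 in edgeR) and the adaptor Dok1 (0.30, adjusted p = 0.0384 in edgeR). Ptpn6 measured 73.5, 133.4 and 87.1 CPM in KO4, KO5 and KO6, highest in KO5, and Dok1 measured 24.5, 25.4 and 26.1 CPM. Inpp5d, which encodes SHIP1, had a log2 fold change of 0.31 and an adjusted p of 0.0951 in edgeR, and Ptpn11 was at -0.16. The median of the 6 genes was 0.31, and the count was 0 without WT4, WT5, WT6 or KO6 and 3 without KO4.

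Adaptors related to the gamma chain and other receptors that use it gave 3 calls among 6 genes tested. Tyrobp, which encodes the ITAM adaptor DAP12, went from 34.2 ± 4.52 to 62.8 ± 9.55 CPM (SD, n = 3), a log2 fold change of 0.87 with an adjusted p of 0.0208 in edgeR, close to the 0.85 of Fcer1g. Clec4e and Clec4n, lectin receptors that signal through the gamma chain, had log2 fold changes of 1.69 and 0.73 and were called higher. Gp6, the collagen receptor of platelets that also uses the gamma chain, was at -0.20 with an adjusted p of 0.499 in edgeR. Cd247 and Hcst, with 0.80 and 0.93, did not pass, and Oscar was too low to be tested. The count was 0 without WT5, WT6 or KO6 and 1 without WT4.

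Of 9 further Fc receptors and Fc receptor-like genes that could be tested, 1 was higher in KO mice. This was Fcrl5, a receptor of B cells, which went from 1.31 ± 0.519 to 6.93 ± 3.82 CPM (SD, n = 3), a log2 fold change of 2.40 with an adjusted p of 0.0327 in edgeR. The count was 0 without WT4, WT5, WT6 or KO6 and 4 without KO4 or KO5. Other B cell members of this list had large folds without passing, with log2 fold changes of 2.11 for the IgM receptor Fcmr, 2.07 for Fcrl1, 1.99 for the low affinity IgE receptor Fcer2a and 1.61 for Fcrla. Each of them was highest in KO5, as for Fcmr, which measured 8.05, 7.57 and 8.21 CPM in the WT mice and 17.4, 65.2 and 19.0 CPM in KO4, KO5 and KO6. The alpha and beta chains of the high affinity IgE receptor of mast cells, which also pairs with the gamma chain, were near the limit of detection, with Fcer1a at 0.191 CPM in WT and 0.423 CPM in KO mice and Ms4a2 at 0.397 and 0.799 CPM on average.

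The ligands of these receptors, read as antibody heavy and light chain constant regions, varied widely between mice. Of the 8 genes tested 0 passed in edgeR's quasi-likelihood test (4 at an unadjusted p under 0.05), 1 passed in DESeq2 and 2 in edgeR's exact test, and their median log2 fold change was 1.56. Ighm, the heavy chain of IgM, measured 206.4, 829.7 and 1490 CPM in WT4, WT5 and WT6 and 2936, 2089 and 4173 CPM in KO4, KO5 and KO6, a log2 fold change of 1.86 (edgeR adjusted p = 0.125). The groups did not overlap, but the WT mice alone spread widely. Igha, the heavy chain of IgA that pIgR transports, was at 122.9, 112.7 and 148.1 CPM in the WT mice and 118.5, 42.4 and 153.5 CPM in the KO mice, with KO5 lowest as for Pigr.

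**Figure D4:**
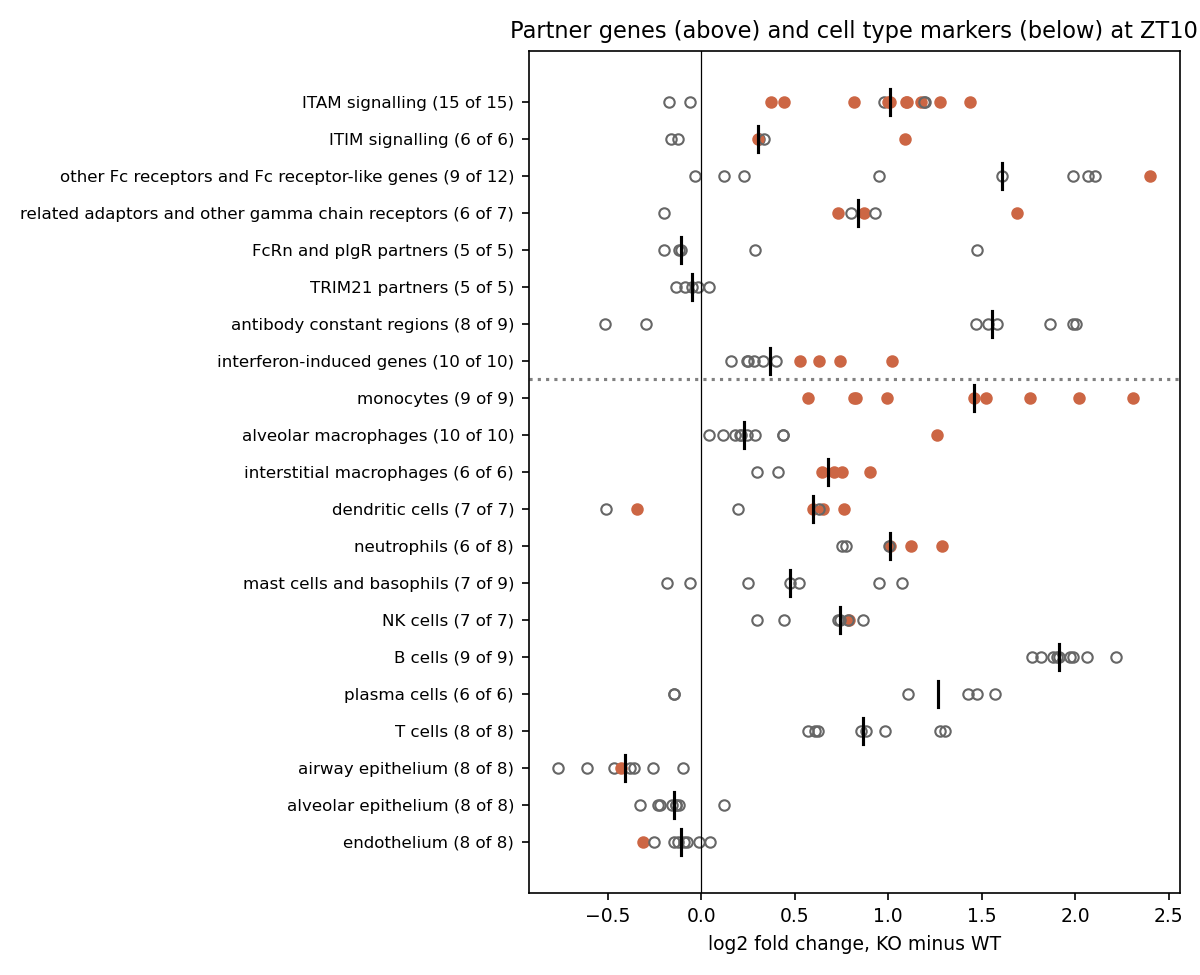
Log2 fold change (KO minus WT, horizontal axis) of each tested gene of 8 lists of partner genes (above the dotted line) and 13 lists of cell type markers (below it), with filled red points for genes with an adjusted p-value of at most 0.05, open points for the rest and a black bar at each list's median. The ITAM genes centre on 1.01 and the monocyte markers on 1.46, alveolar macrophage markers on 0.23 and alveolar epithelial markers on -0.15.

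Markers of cells that carry Fc receptors were read from the same fit. All 9 monocyte markers were higher in KO mice, with a median log2 fold change of 1.46, and their summed level was 228.6 to 280.9 CPM in WT and 427.9 to 561.7 CPM in KO mice. This count was 0 without WT5 or WT6, and between 5 and 9 without each of the other mice. Cx3cr1, Adgre4 and Cd300e of this list were already reported as higher at ZT10 by the study from these same libraries. Over all genes tested, 3.72% were called higher. Of 6 neutrophil markers tested 3 were higher (median 1.01, sums of 56.9 to 94.8 CPM in WT and 150 to 168.7 CPM in KO mice), and of 6 interstitial macrophage markers 4 were higher (median 0.68, sums of 501.1 to 561.1 and 621.8 to 780.5 CPM). Without WT4, WT5 or KO6 the neutrophil count was 0, and the interstitial macrophage count was 0 without WT4, WT5, WT6 or KO6. Among 10 alveolar macrophage markers Marco alone was called higher (log2 fold change 1.26), their median was 0.23, and the summed levels of 504.5 to 823.7 CPM in WT and 668 to 838.2 CPM in KO mice overlapped. Marco was not called without WT5.

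Among 7 dendritic cell markers, Flt3, Itgax and Xcr1 were higher and Zbtb46 was lower. The sums of this list, 136.8 to 167.6 CPM in WT and 166.6 to 183 CPM in KO mice, overlapped. Of 7 NK cell markers, Ncr1 was higher (median 0.74, sums of 30.9 to 42.8 and 50.1 to 66 CPM). Neither the NK cell nor the dendritic cell list held a call without WT5, WT6 or KO6, and the NK cell list held 0 without WT4 as well. B cell markers had a median of 1.91, with 0 of 9 called in edgeR's quasi-likelihood test (9 at an unadjusted p under 0.05), 7 in DESeq2 and 9 in edgeR's exact test, and 7 of 9 without KO4 or KO5. T cell markers (median 0.87, sums of 45.7 to 48.8 and 52.8 to 130.8 CPM) gave 0 calls among 8 in edgeR (7 at an unadjusted p under 0.05) and plasma cell markers (1.26, sums of 538.1 to 772 and 679.7 to 1169 CPM) 0 among 6 (4 at an unadjusted p under 0.05), with 6 and 1 calls in DESeq2 and 1 and 2 in edgeR's exact test. Mast cell and basophil markers gave 0 calls among 7 tested in either test of edgeR and in DESeq2 (3 at an unadjusted p under 0.05, median 0.48, sums of 348.8 to 371.7 and 324.8 to 342.4 CPM).

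Of the lists for structural cells, that for airway epithelium had a median of -0.41 with 1 gene of 8 lower (Aldh1a1, a count that was 0 when any mouse but KO4 was left out), and its sums of 30167 to 39335 CPM in WT and 22973 to 31526 CPM in KO mice overlapped. The endothelial list had a median of -0.11 with 1 of 8 lower (Cldn5, likewise 0 when any mouse but KO4 was left out, sums of 5037 to 5348 and 4529 to 5159 CPM), and the alveolar epithelial list had 0 of 8 called in edgeR and 2 in DESeq2 (2 at an unadjusted p under 0.05, median -0.15, sums of 20259 to 22241 and 16359 to 20959 CPM). No marker on any list was at 0 in all 6 mice. The part of cell numbers in the values of Fcgr4, Fcer1g and the ITAM genes was not tested.

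The genes most like each member over the 6 mice were found by the root mean square difference of log2 CPM after each gene was centred on its own mean, among 15383 genes with a mean of at least 1 CPM. For Fcer1g the nearest were Klrb1c, an NK cell receptor (difference 0.0865), G730003C15Rik (0.0899) and Fut7 (0.0899), which makes selectin ligands in leukocytes. For Fcgr4 they were BC023105 (0.0866), Cyp2ab1 (0.115) and Cd300ld (0.118), a myeloid receptor. For Fcgr1 they were Tap1 (0.0820), the peptide transporter of antigen presentation, Adgre1 (0.0848), which encodes the macrophage antigen F4/80, and Klrd1 (0.0930). For Fcgr2b they were Rgs14 (0.0610), Tmc8 (0.0698) and Hmha1 (0.0757). For Pigr they were the water channel Aqp4 (0.145), Fcamr (0.156) and Proz (0.165). Fcamr, a receptor for IgA and IgM, ends 11944 bp before Pigr starts on chromosome 1, and it measured 2.39 CPM on average in WT and in KO mice.

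Since neighbours were chosen by likeness over the same 6 mice, members with small changes have neighbours with small changes by construction. The same holds for short distances between such members. Fcgr3 was nearest to 2900089D17Rik (0.0322), Hoxa4 (0.0439) and Rpl22-ps1 (0.0485), Fcgrt to Kdm4a (0.0162), Ddhd2 (0.0166) and Map3k5 (0.0211), and Trim21 to Ppt1 (0.0229), Tbc1d17 (0.0245) and Uevld (0.0257). Between members, the closest pairs were Fcgrt with Trim21 (0.0686), Fcgr3 with Trim21 (0.109) and Fcgr3 with Fcgrt (0.125). Fcer1g was closest to Fcgr1 (0.233) and Fcgr4 (0.239) and farther from Fcgr3 (0.422), and Fcgr2b differed from Fcgr4 by 0.582. These 6 mice share 2 genotypes and each library enters every gene's value, so the distances describe these libraries.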

How the data were processed

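RNA from whole lung was sequenced from stranded TruSeq mRNA libraries, 1 per mouse. According to the submitters' processing notes and the methods, the authors trimmed reads (Trimmomatic 0.36), aligned them to GRCm38 (STAR 2.5.3a) and counted them per gene (HTSeq 0.6.0), and deposited raw counts without normalization. Picard 2.9.0 is also named. The annotation release and the strand setting are not given in the sources used here. Groups and columns follow the sample titles, and no library was left out.

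KO was tested against WT in R 4.3.3 with edgeR 4.0.16 (quasi-likelihood test, TMM scaling, default filter with a minimum count of 10 and a minimum total of 15, Benjamini-Hochberg adjustment over 17037 genes). Calls required an adjusted p of at most 0.05. Standard errors are the fold change over the square root of the F statistic. CPM and RPKM (union exon length) use scaled library sizes. Positions come from GENCODE mouse release 21, which placed 46488 genes, and promoters from RefSeq (GRCm38.p6), which matched 8 of 8 members. Each library is 1 mouse, and the p-values set the difference between KO and WT against the spread between mice.

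The members and gene lists were chosen with earlier results of these data known. Named genes are Zpbp2, the members, genes of 8 partner lists and 13 marker lists, and the 3 genes nearest each member. Alternatives were DESeq2 1.42.0, edgeR's exact test, 2 other scalings, 2 other filters, removal of 397 immunoglobulin genes, the replicate number as a block, the additional fold threshold and each mouse left out. The fit was tested in 3 runs on simulated data with 200 changed genes each. It recovered 92.5% to 95% of the changed genes. Of its calls at an adjusted p of at most 0.05, 6.57% to 9.52% were false, more than this cut allows for. Python 3.11.15, pandas 2.3.3, SciPy 1.17.1, Biopython 1.88 and Matplotlib 3.10.9 made the tables and figures.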

Additional observations from a re-analysis of the deposited data

How the results depend on the processing

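The number of Fc receptor genes called (2) was 0 with the replicate block, 0 with the fold threshold of 1.5 added, and 0 to 3 with 1 mouse left out. It was 2 or 3 with the other scalings, filters and tests and without immunoglobulin genes. Over all genes the 1089 calls became 1913 with DESeq2, 66 with the replicate block, 109 with the fold threshold and 1 to 1278 with 1 mouse left out, the lowest without WT5. The 20 partner genes became 33, 1, 2 and 0 to 28 in the same order. Fcer1g and Fcgr4 lost their calls with the replicate block (adjusted p = 0.0643 and 0.0879 in edgeR) and kept them in the other 7 fits that used all mice. Fcgr2b was called with no filter, edgeR's exact test and DESeq2 (adjusted p = 0.0407, 0.0163 and 0.00253), and Fcgr1 in no alternative (DESeq2 adjusted p = 0.0519). Pigr, never called, turned to -0.11 with the replicate block, -0.04 without WT4 and -0.42 without KO6, and was 0.40 without KO5. The activating to inhibitory ratio ranged from -0.59 to 0.026 with 1 mouse left out and reversed only without KO5. The ratio of the gamma chain to the activating receptors lay between 0.20 and 0.60 in 9 alternatives, the lowest with the mean of log2 CPM over the receptors (exact permutation p = 0.4, against 0.1), and paired by number (replicate block) its exact p was 0.250.

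Mice share only a replicate number: deviations of same-number mice correlated at -0.15 to -0.02, so no pairing was used. With 3 mice per group, and 57 counts of Fcgr1 in WT5, differences inside the printed intervals could not be resolved. The cause of these changes was not tested.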
